A study of Mus musculus with 8 samples.

Results

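The genes described are Cytl1, Prg4, Gdf5, Tnc, Erg and Ucma, which mark joint surfaces and resting cartilage. They were taken as every probe set that the platform annotation maps to exactly 1 of these symbols, which gave 9 probe sets for 6 genes of the 18193 genes named on the array. The 6 genes were picked with earlier results of these arrays known, and which values were in view is not recorded. Their levels by litter are taken as used in the choice and are a description without a test. Values by genotype may have been in view too, so the genotype p-values below are not independent support. Rib chondrocytes, released from rib cages with collagenase and trypsin, were profiled at E18.5 on 8 Affymetrix arrays, 4 from Hoxc8 transgenic and 4 from control FVB embryos, which the labels call wild type without saying whether they carry a driver transgene. Each of 4 litters gave 1 transgenic and 1 control array, its embryos having been grouped by genotype, and the litters are called 1 to 4 after the replicate numbers. The sources used here do not give the promoter that drives the transgene, the number and sex of the embryos in a sample or the day of each digestion, so a litter cannot be told apart from its dissection, digestion or array run. Values are MAS5 signals on a linear scale, already brought to a common trimmed mean of 500 on every array, and array medians lay between 107 and 121. Hoxc8 gave 4096, 3400, 3810 and 4235 in transgenic samples of litters 1, 2, 3 and 4, against 4112, 3066, 3755 and 3143 in controls. The Hoxc8 groups overlapped (0.15 log2, SE 0.12, limma adjusted p = 0.9999), and the sources used here do not say whether this probe set covers the sequence carried by the transgene. The 18 core cartilage genes were all bright, the dimmest being Sox6 with a mean signal of 2017.

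Long bones and ribs grow from cartilage in which a resting zone feeds proliferating and then hypertrophic chondrocytes, while the cells at the ends form the smooth joint surface. Gdf5, a secreted growth factor of the BMP family, marks the interzone where a joint forms, Erg, an ETS transcription factor, is expressed in young articular chondrocytes and also in endothelial cells, and Prg4 encodes lubricin, the glycoprotein that lubricates the joint surface. Tnc encodes tenascin-C, a matrix glycoprotein of articular cartilage, perichondrium and tendon. Cytl1 encodes a small secreted protein of cartilage, and Ucma encodes a secreted vitamin K dependent protein of the upper, resting zone of the growth plate. In a digest of whole rib cages, fewer cells of a type and less RNA per cell cannot be told apart.

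Promoter windows of 250 bases before to 50 after the transcription start are shown for 3 genes whose signal followed the litters, Cytl1, Tnc and Erg, and for Ucma, whose signal was close to level, so that they can be compared. They come from RefSeq on build GRCm38.p6, whose promoter table held 4 of the 6 genes. Capitals mark matches, on either strand, to TATAAA (the TATA box), AACAAT (a SOX core), CCGGAA (an ETS core) or TAATTA (a homeodomain core), none of which overlap in these windows. The Cytl1 window lies at chr5:37735269-37735568 on the plus strand, the Tnc window at chr4:64046887-64047186 on the minus strand, the Erg window at chr16:95586544-95586843 on the minus strand and the Ucma window at chr2:4975872-4976171 on the plus strand.
Cytl1: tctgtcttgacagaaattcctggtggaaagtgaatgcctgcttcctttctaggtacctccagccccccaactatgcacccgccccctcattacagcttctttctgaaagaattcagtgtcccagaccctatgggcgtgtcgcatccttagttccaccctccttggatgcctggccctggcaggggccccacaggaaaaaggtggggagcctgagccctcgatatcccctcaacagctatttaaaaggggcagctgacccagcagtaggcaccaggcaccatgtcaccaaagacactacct
Tnc: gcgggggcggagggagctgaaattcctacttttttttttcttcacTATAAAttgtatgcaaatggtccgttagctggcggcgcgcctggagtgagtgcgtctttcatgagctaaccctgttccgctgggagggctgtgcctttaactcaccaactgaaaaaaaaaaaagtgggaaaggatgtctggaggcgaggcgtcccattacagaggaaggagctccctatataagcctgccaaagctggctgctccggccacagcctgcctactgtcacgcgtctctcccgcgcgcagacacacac
Erg: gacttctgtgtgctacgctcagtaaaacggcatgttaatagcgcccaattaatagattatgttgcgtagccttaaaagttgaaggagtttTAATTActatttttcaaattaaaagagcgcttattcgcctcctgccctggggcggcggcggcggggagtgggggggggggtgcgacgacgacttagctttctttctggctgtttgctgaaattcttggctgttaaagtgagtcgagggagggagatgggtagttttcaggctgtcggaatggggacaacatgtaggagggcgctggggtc
Ucma: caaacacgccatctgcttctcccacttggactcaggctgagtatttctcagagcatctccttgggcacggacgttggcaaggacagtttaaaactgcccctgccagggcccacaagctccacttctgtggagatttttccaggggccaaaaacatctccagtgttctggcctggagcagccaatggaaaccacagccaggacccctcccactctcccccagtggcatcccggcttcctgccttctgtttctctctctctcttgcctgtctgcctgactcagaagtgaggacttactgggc
No letters are in capitals in the Cytl1 and Ucma windows. The Tnc window holds 1 TATAAA, starting 205 bases before the start site, and the Erg window 1 TAATTA, 160 bases before it. The Tnc window also holds TATATAAG nearer the start site, which is not an exact match and is not marked. Whether a match acts as a TATA box or binding site was not tested. Of 32851 promoter windows in the table, 13.6% hold TATAAA, 10.7% AACAAT, 14.9% CCGGAA and 5.29% TAATTA. The GC content was 55.0% for Cytl1, 54.0% for Tnc, 50.3% for Erg and 56.0% for Ucma, against a median of 52.7% over all windows. A second RefSeq start of Tnc and 2 further starts of Erg are not shown. The window of that Tnc start holds TATAAA. Of the Erg windows not shown, 1 holds TATAAA and the other AACAAT and TAATTA.

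Cytl1, Prg4 and Gdf5 showed the widest differences between litters among the 6 genes, with litter 2 lowest and litter 3 highest in both genotypes. Cytl1 signals in litters 1, 2, 3 and 4 were 5204, 1875, 12619 and 7979 in transgenic samples, against 5603, 2828, 13317 and 12821 in controls. Litter 2 was thus the low litter and litters 3 and 4 the high ones for this secreted cartilage protein, and the 2 genotypes had the litters in the same order. For Prg4, the lubricin gene, the signals were 606, 362, 1452 and 941 in transgenic samples, against 872, 407, 1471 and 1255 in controls. The joint factor gene Gdf5 gave 207, 102, 544 and 311 in transgenic samples, against 294, 104, 588 and 317 in controls. The litter order, 2 below 1 below 4 below 3, was shared by the 3 genes in both genotypes. An identical order in both genotypes was seen in 11.2% of all 22519 probe sets tested.

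Tnc and Erg shared the low litter 2 and the high litter 3, with a narrower spread. The brighter Tnc probe set gave 3915, 2683, 5954 and 3248 in transgenic samples of litters 1, 2, 3 and 4, against 3590, 2937, 6972 and 4283 in controls. Here litters 1 and 4 changed places between the genotypes. The dimmer Tnc probe set gave 306, 360, 497 and 383 in transgenic samples, against 381, 348, 492 and 357 in controls. Litter 3 was again the highest in both genotypes on this probe set, but litter 2 was not the lowest of the transgenic samples. The brighter Erg probe set gave 597, 396, 797 and 495 in transgenic samples, against 486, 386, 837 and 661 in controls, so both arrays of litter 2 lay below all others. Both arrays of litter 2 lay below the other 6 in Cytl1, Prg4, Gdf5, Tnc and Erg, as in 9.06% of all probe sets tested. The dimmer Erg probe set had a mean signal of 15.9, under the signal filter of 110, and was not tested. It lay between 7.96 and 26.4 in transgenic samples and between 6.91 and 34.7 in controls, and its highest control array was that of litter 2.

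Ucma, by contrast, was bright and close to level. Its brighter probe set gave 38396, 38273, 36036 and 38870 in transgenic samples of litters 1, 2, 3 and 4, against 36101, 41203, 32941 and 39573 in controls, and ranked 90 of 45037 probe sets by mean signal. Its dimmer probe set gave 22505, 23927, 22019 and 24209 in transgenic samples, against 23732, 24104, 21462 and 24087 in controls. On both probe sets litter 3, the high litter of the 5 other genes, was the lowest. The sources used here do not say whether the brightest signals lie near the scanner's limit.

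**Figure D1:**
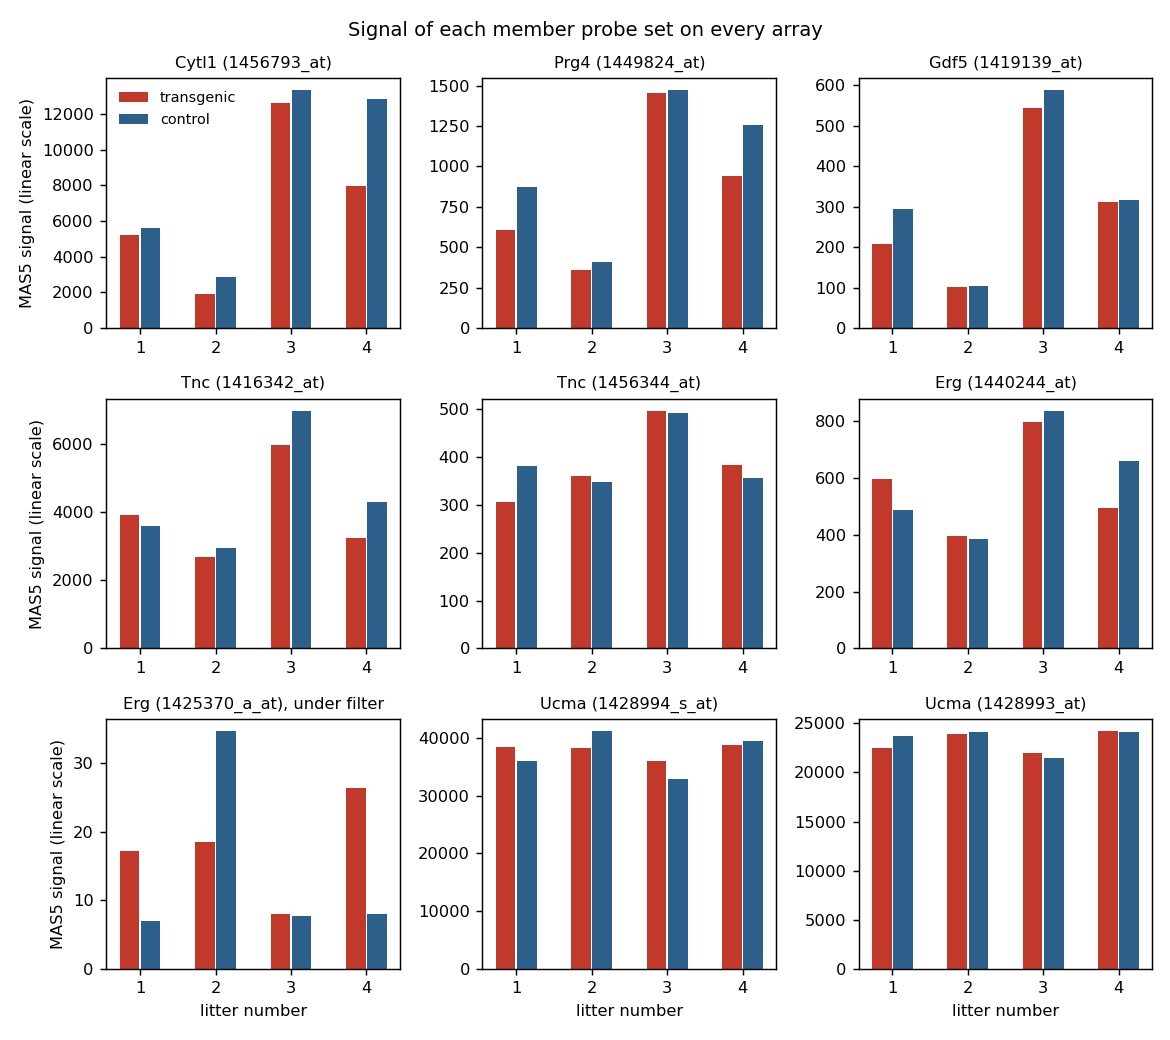
MAS5 signal (y axis, linear, from 0) of the 9 probe sets of the 6 genes on every array, by litter number (x axis), with the transgenic sample on the left and the control on the right of each pair; each bar is 1 array. Cytl1 runs from 1875 to 13317, with litter 2 lowest and litter 3 highest in both genotypes, while Ucma stays between 32941 and 41203 on its brighter probe set.

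The size of these differences was expressed as the range over the 4 litter means of log2(signal + 22.1), each the mean of 2 arrays. The range was 2.48 for Cytl1 (5.59-fold), 2.23 for Gdf5 (4.69-fold), 1.87 for Prg4 (3.66-fold), 1.19 for Tnc (2.29-fold) and 1.02 for Erg (2.03-fold). The spread of the 2 arrays of a litter, pooled over litters, was an SD of 0.32 for Cytl1, 0.17 for Gdf5, 0.24 for Prg4, 0.17 for Tnc and 0.18 for Erg (log2). The ranges were between 5.79 and 13.2 times that spread. The same ratio was 3.03 and 4.99 for the brighter and the dimmer Ucma probe set, and 4.56 for the dimmer Tnc probe set. A range above the spread thus does not set a gene apart. For Ucma the range was 0.20 and the spread 0.07, and the dimmer Tnc probe set had a range of 0.51. Among 22519 probe sets ordered by this range, Cytl1 stood at place 11, Gdf5 at 19, Prg4 at 47, Tnc at 440 and Erg at 845, while Ucma stood at 19393. A range above 1 was reached by 5 of the 6 genes and by 4.14% of all probe sets, and litter 2 was lowest and litter 3 highest in both genotypes for the same 5 genes and for 2.61% of all probe sets. Since the genes were picked with these values in view, nothing is read from the comparison.

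The range depended on litters 2 and 3. Without litter 2 it was 1.26 for Cytl1, 1.13 for Gdf5, 0.99 for Prg4, 0.79 for Tnc and 0.58 for Erg. Without litter 3 it was 2.12 for Cytl1, 1.42 for Gdf5, 1.45 for Prg4, 0.41 for Tnc and 0.52 for Erg. Among these genes, Tnc and Erg had the narrowest ranges in both cases. Litter 1 lay under litter 4 in each of Cytl1, Gdf5 and Prg4.

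**Figure D2:**
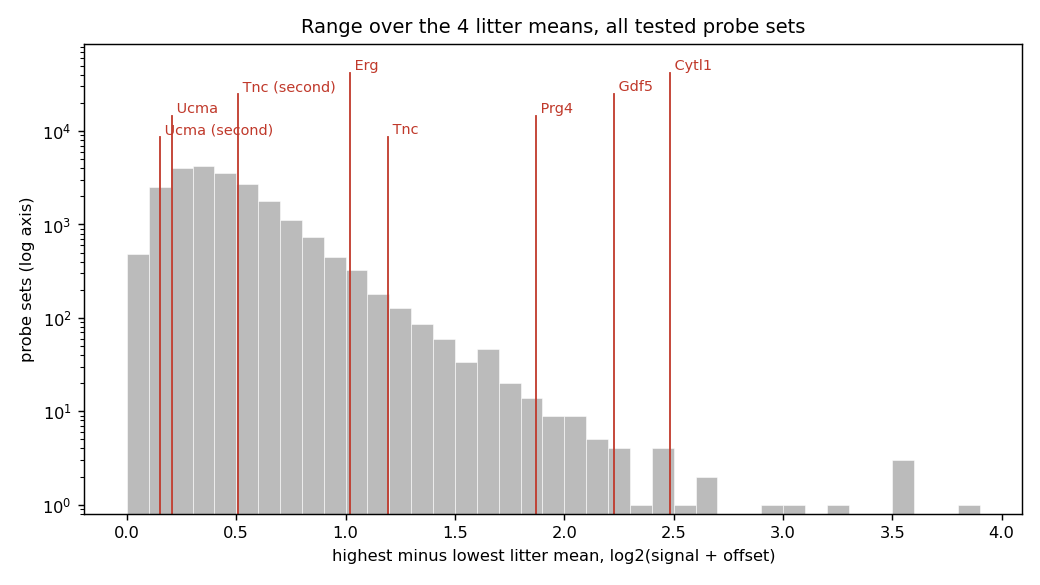
Range over the 4 litter means in log2(signal + offset) (x axis) for 22519 tested probe sets, as the number of probe sets per bin (y axis, log scale), with lines at the probe sets of the 6 genes. Cytl1, Gdf5 and Prg4 lie in the sparse upper tail at 2.48, 2.23 and 1.87, and Ucma at 0.20.

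The comparison of genotypes sets embryos labelled as transgenic for Hoxc8, a homeobox transcription factor of the trunk skeleton, against controls; the Hoxc8 probe set itself did not pass the test, as given above. No probe set of the 6 genes was called. Cytl1 averaged 6919 ± 4546 in transgenic samples and 8642 ± 5240 in controls (SD, n = 4 each), a fitted difference of -0.36 log2 (SE 0.55) with a 95% interval from -1.54 to 0.82. Prg4 averaged 840 ± 472 in transgenic samples and 1001 ± 467 in controls (-0.27 log2, SE 0.41). For Gdf5 the means were 291 ± 189 in transgenic samples and 326 ± 199 in controls (-0.16 log2, SE 0.47). In each of the 3 genes the genotypes overlapped, and the spread between litters was wider than the difference between genotypes. Leaving out the transgenic array of litter 2, which unbalances the litters, turned the difference to 0.16 for Cytl1, 0.0575 for Prg4 and 0.22 for Gdf5.

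The fitted difference was -0.16 log2 (SE 0.26) for the brighter and -0.04 (SE 0.17) for the dimmer Tnc probe set, -0.04 (SE 0.24) for Erg, and 0.02 (SE 0.09) and -0.01 (SE 0.08) for the brighter and the dimmer Ucma probe set. These fits held no term for litter. Their 95% intervals lay between 0.879-fold and 1.16-fold for Ucma, between 0.607-fold and 1.33-fold for Tnc, and between 0.680-fold and 1.40-fold for Erg. By limma with Benjamini-Hochberg adjustment over all probe sets, 0 of the 8 tested probe sets passed, as did 0.0% of all (adjusted p = 0.9999 for each of the 8), and 0 of the 8 had an unadjusted p under 0.05, against 1.09% of all probe sets.

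Within litters, Cytl1, Prg4 and Gdf5 each had a lower signal in the transgenic sample in 4 of 4 litters. The ratio of transgenic to control for Cytl1 was 0.929, 0.663, 0.948 and 0.622 in litters 1, 2, 3 and 4. For Prg4 it was 0.695, 0.889, 0.987 and 0.750, and for Gdf5 0.704, 0.982, 0.926 and 0.980. The ratio was lowest in litter 4 for Cytl1 and in litter 1 for Prg4 and Gdf5, and litter 4 had the next lowest ratio of Prg4. Tnc was lower in the transgenic sample in 3 of 4 litters on its brighter probe set and in 1 of 4 on the dimmer one. Erg and both Ucma probe sets were lower in 2 of 4.

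A lower signal in 4 of 4 litters was seen for 3 of the 8 tested probe sets and for 5.43% of all probe sets. The 3 genes vary together across arrays, so they are not independent of each other. With litter as a block, which removes the differences between litters from the error, the SE fell to 0.10 for Cytl1 and 0.11 for Prg4. The intervals were then -0.58 to -0.14 log2 for Cytl1 (limma unadjusted p = 0.00357) and -0.51 to -0.04 for Prg4 (unadjusted p = 0.0247). For Gdf5 the interval was -0.48 to 0.17 (SE 0.15, limma unadjusted p = 0.313). The intervals of Tnc were -0.34 to 0.03 on the brighter and -0.31 to 0.24 on the dimmer probe set. That of Erg was -0.31 to 0.23, and those of Ucma were -0.11 to 0.16 and -0.14 to 0.12. In that fit 2 of the 8 probe sets and 3.34% of all had an unadjusted p under 0.05. Neither Cytl1 nor Prg4 passed adjustment (limma, adjusted p = 0.9998 each). Cytl1 stood at place 41 and Prg4 at place 322 of 22519 by p in the blocked fit. A lower signal in 4 of 4 litters was also seen in S100a9, a neutrophil granule gene, with 1277, 645, 908 and 1704 in transgenic samples of litters 1, 2, 3 and 4, against 2092, 821, 969 and 2524 in controls. S100a8, another neutrophil granule gene, was lower in litters 1, 2 and 4. In litter 3 it gave 1288 in the transgenic sample and 1284 in the control. The part of neutrophils in the differences of Cytl1 and Prg4 was not tested.

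**Figure D3:**
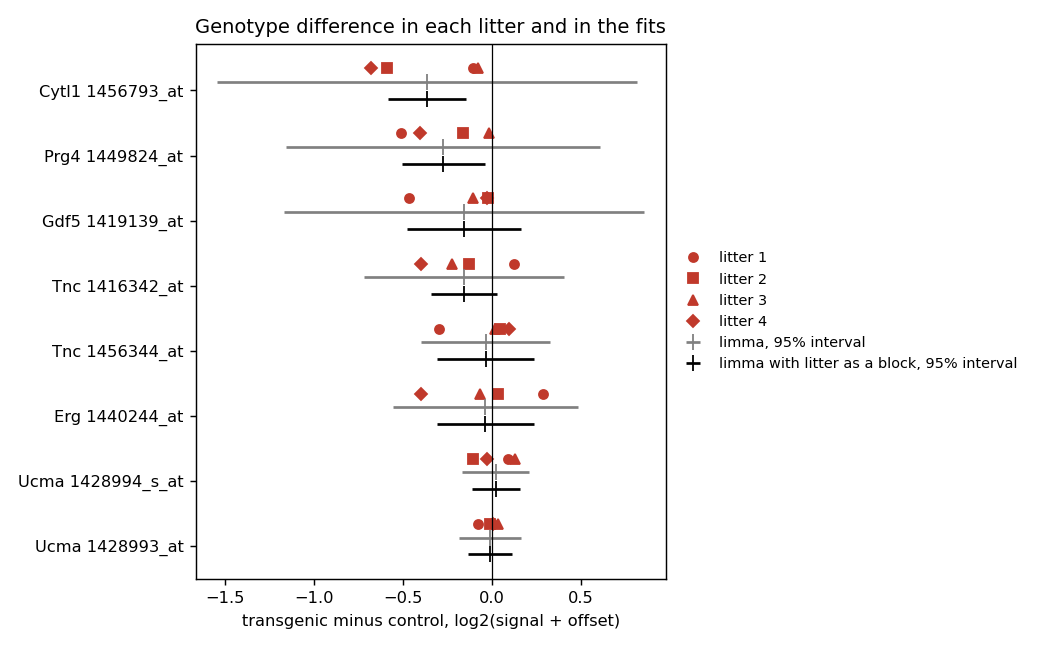
Transgenic minus control in log2(signal + offset) (x axis) for the 8 tested probe sets (rows), as 1 marker per litter, with the fitted difference and its 95% interval from limma without (grey) and with (black) litter as a block. For Cytl1, Prg4 and Gdf5 all 4 markers lie below 0, and the interval with the block lies below 0 for Cytl1 and Prg4.

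The genes were next set against each other across the 8 arrays. Pearson correlations of log2(signal + 22.1) are given as descriptions, since arrays of a litter are not independent and the genes were chosen together. Cytl1 and Prg4 gave 0.98, Prg4 and Gdf5 0.98, Tnc and Erg 0.97, and the 10 pairs among the 5 genes other than Ucma lay between 0.84 and 0.98. After leaving out the 2 arrays farthest from the median of the first gene, these 10 pairs lay between 0.71 and 0.96. Within the 5 genes, Cytl1, Prg4 and Gdf5 were closest to each other, and Tnc was closest to Erg. Ucma gave values between -0.77 and -0.50 with the other 5 genes. Without the 2 arrays farthest from the median of Ucma, these were -0.05 with Cytl1, -0.22 with Prg4, -0.40 with Gdf5, -0.41 with Tnc and -0.19 with Erg. The 2 arrays farthest from the median of the other gene were then left out instead. That gave -0.31 with Cytl1, -0.49 with Prg4, -0.74 with Gdf5, -0.17 with Tnc and -0.14 with Erg. The 2 Tnc probe sets gave 0.76 with each other. Without the 2 arrays farthest from the median of the brighter one they gave -0.28, so their likeness rested on those arrays.

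Among 10988 other genes, those with a profile most like Cytl1 over the 8 arrays were Flrt2, a leucine-rich transmembrane protein gene (r = 0.99), Gng12, a G protein subunit gene (0.99), and Rbp4, the retinol binding protein gene (0.99), and Prg4 stood at place 5. Flrt2 gave 1564, 1009, 2171 and 1844 in transgenic samples of litters 1, 2, 3 and 4, against 1703, 1299, 2461 and 2258 in controls. Closest to Prg4 were Plcb1, a phospholipase C gene, Camk4, a calcium and calmodulin dependent kinase gene, and Pkn2, a kinase gene (0.99 each), and Camk4 was also closest to Gdf5 (0.99), followed by Abcd3, a peroxisomal transporter gene (0.98), and Slc38a1, an amino acid transporter gene (0.98). Camk4 gave 666, 441, 1101 and 853 in transgenic samples, against 776, 495, 1113 and 882 in controls, with litter 2 lowest and litter 3 highest as in Gdf5.

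Closest to Tnc were Gpc1, a glypican gene (0.99), Spred1, an inhibitor of Ras signalling (0.99), and Ltbp1, a latent TGF-beta binding protein gene (0.98). Closest to Erg were Penk, the proenkephalin gene (0.99), Gask1b (0.99) and Rbpj, the nuclear effector of Notch signalling (0.98). Tnc stood at place 11 for Erg, and Erg at place 18 for Tnc. Penk gave 4271, 2836, 5093 and 3433 in transgenic samples, against 3659, 3001, 5388 and 4566 in controls. Ucma was most like Lsp1 (0.98), Setd4 (0.98) and Rnf34 (0.97), and none of the other 5 genes stood nearer to it than place 9045. These are the highest values among 10988 genes and carry no test.

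Other genes of the same tissues and pathways were tested for differences between litters (limma, moderated F, genotype as a covariate), with each gene represented once. Of all 10989 genes, 9.91% passed, and 0 probe sets passed that test when the intensity trend was left out of the moderation, so every call by that F-test below rests on the trend; the contrasts of single litters were not run without it. Of 16 other joint and articular surface genes tested, 2 passed (12.5%), Tgfbr2, a TGF-beta receptor gene, and Clu, the clusterin gene. Tgfbr2 averaged 2480, 1911, 3233 and 2098 in litters 1, 2, 3 and 4 (n = 2 each, limma F-test adjusted p = 0.0077) and Clu 1716, 1600, 2868 and 1906 (adjusted p = 0.0143), both with litter 3 highest and litter 2 lowest. Osr1, an odd-skipped transcription factor gene of joints, did not pass (adjusted p = 0.0519). The median of litter 3 minus the other 3 was 0.34 log2 over this list, against 0.00 over all genes, and that of litter 2 was -0.16, against -0.03.

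Of 12 other resting zone genes, 2 passed (16.7%), Wif1, which encodes a secreted Wnt inhibitor, and Fgfrl1, an FGF receptor-like gene. Wif1 averaged 647, 332, 1860 and 1161 in litters 1, 2, 3 and 4 (limma F-test adjusted p = 3.13e-05), the order of Cytl1, Prg4 and Gdf5, with a range of 2.41 log2 that took place 14 of all probe sets. Fgfrl1 averaged 7502, 7403, 6937 and 5422 (adjusted p = 0.0217), lowest in litter 4, and its 1 other probe set had the opposite sign in litter 3. Scrg1, a gene of cartilage and mesenchyme, gave 20188, 21195, 17659 and 23264 and did not pass (adjusted p = 0.0557). Medians over this list were 0.06 for litter 2 and 0.09 for litter 3 log2. Apoe had the largest genotype difference of the list, 0.41 log2 (SE 0.32), with 264 ± 43.1 in transgenic samples and 213 ± 98.2 in controls (SD, n = 4 each, limma adjusted p = 0.9999).

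Partners of single members were examined next. Of 17 receptors, antagonists and targets of Gdf5, 4 passed the litter test (23.5%). The BMP response genes Id1 and Id3 were highest in litter 2, where Gdf5 was lowest. Id1 averaged 4862, 8844, 5040 and 4382 in litters 1, 2, 3 and 4 (limma F-test adjusted p = 0.00113) and Id3 6860, 10628, 6532 and 6374 (adjusted p = 0.00372). The type I receptor gene Bmpr1a averaged 2422, 2113, 3071 and 3030 (adjusted p = 0.0141), lowest in litter 2, with 2 of its 4 other probe sets of the opposite sign in litter 3, and Chrd, the chordin gene, had the largest genotype difference of the list (-0.30 log2, SE 0.22). Of 11 genes of the tenascin family and its receptors and partners, 2 passed (18.2%), both highest in litter 3. Tnn, the gene of tenascin-N, averaged 1029, 736, 1902 and 753 (adjusted p = 0.00207) and Vcan, the versican gene, 4321, 3124, 5378 and 3844 (adjusted p = 0.029). Itgav, an integrin subunit gene, did not pass (adjusted p = 0.0663).

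Of 6 ETS factors related to Erg, 2 passed (33.3%), Etv5 and Ets2. Etv5 averaged 1170, 616, 1805 and 1562 (limma F-test adjusted p = 0.000152), low in litter 2 and high in litter 3 like Erg, and Ets2 averaged 1340, 1192, 1761 and 1168 (adjusted p = 0.0349). Of 10 genes of lubricin partners and the hyaluronan system, 1 passed, the thrombospondin gene Thbs1, with 13321, 12687, 13771 and 8991 (adjusted p = 0.00446), and Cd44, the hyaluronan receptor gene, did not (adjusted p = 0.0612). Of 5 vitamin K dependent and mineralization genes, 1 passed, Ggcx, which encodes the carboxylase that modifies Ucma and Mgp (1797, 1722, 1820 and 1201, adjusted p = 0.0182). Mgp, matrix Gla protein, averaged 21507, 20019, 23957 and 26507 and did not pass (adjusted p = 0.102).

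Core cartilage genes were described in the same way. Of 18 tested, 5 passed (27.8%), and in the contrast of each litter against the other 3, 5 were higher in litter 2 (3.09% of all genes) and 5 lower in litter 4 (5.87% of all genes). Sox9, the transcription factor of chondrocyte fate, averaged 5270, 5392, 3527 and 3057 in litters 1, 2, 3 and 4 (limma F-test adjusted p = 0.00101), though its 1 other probe set had the opposite sign in litter 3, and Col11a2, a fibrillar collagen gene, 26835, 29993, 24825 and 18539 (adjusted p = 0.00628). The list median was 0.25 log2 for litter 2 and -0.10 for litter 3, the opposite signs of the joint surface genes. Of 9 hypertrophic genes, 4 passed, with Col10a1 at 8106, 8893, 6344 and 5819 (adjusted p = 0.0194) and Pth1r, the PTHrP receptor gene, at 4119, 4624, 3585 and 3024 (adjusted p = 0.0112). Ihh also passed, with 395, 222, 382 and 216 (limma F-test adjusted p = 0.0201). Unlike Col10a1 and Pth1r, it was low in litter 2 and higher in litter 3. In the lists described so far 0 genes passed the test of genotype (limma) with or without litter as a block, and 0 had an unadjusted p under 0.05 without it (0.91% of all genes). With the block, an unadjusted p under 0.05 was found for 4 of 18 core cartilage genes, 1 of 17 Gdf5 partners and 1 of 11 tenascin partners, against 3.08% of all genes, and for 0 genes of the other lists described so far.

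**Figure D4:**
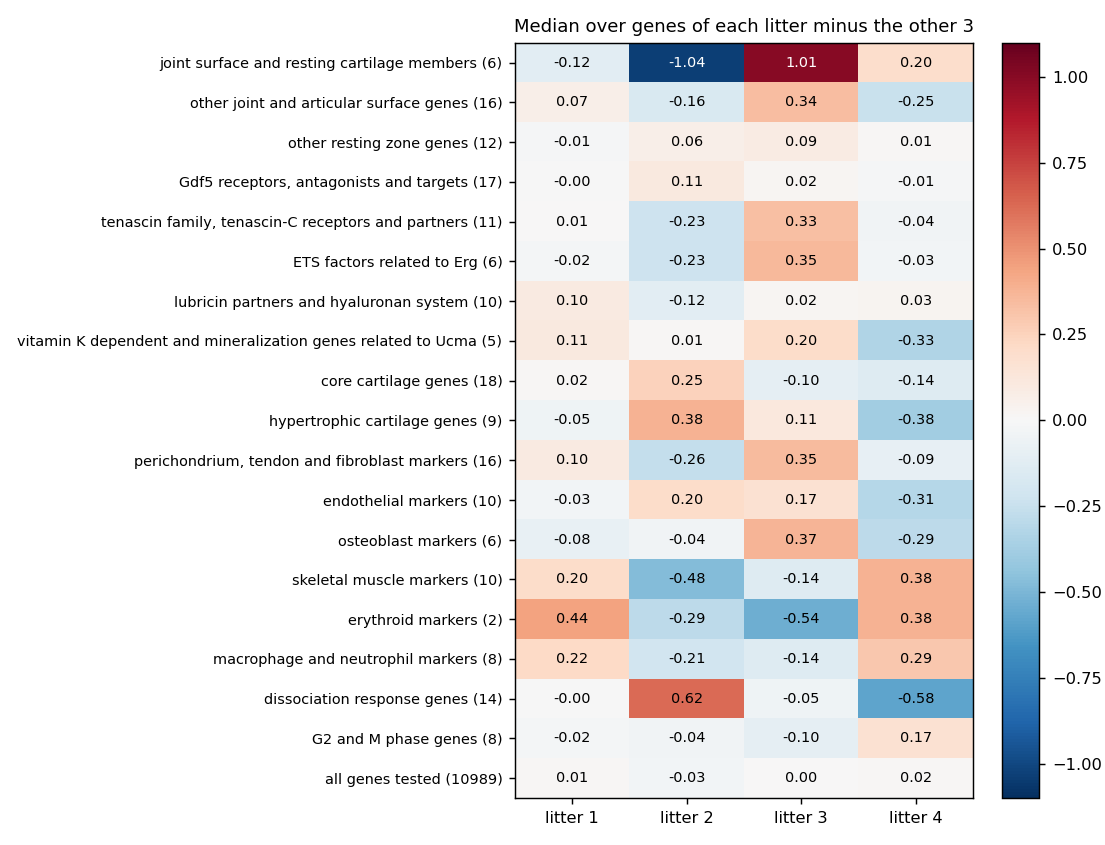
Median over the tested genes of each list (rows, number of genes in brackets) of each litter minus the mean of the other 3 litters (columns), in log2(signal + offset); red is higher and blue lower, and the top row holds the 6 genes described. The 6 genes stand at -1.04 in litter 2 and 1.01 in litter 3, and the last row gives all genes tested.

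Genes of other cells in the digest also differed between litters. Of 16 perichondrium, tendon and fibroblast markers tested, 6 passed the litter test, against 9.91% of all genes. By the contrasts 4 were higher in litter 3 (1.87% of all genes) and 3 lower in litter 2 (3.0% of all genes). By the same contrasts, 2 were higher in litter 2 (3.09% of all genes) and 3 lower in litter 4 (5.87% of all genes). The list medians were -0.26 log2 for litter 2 and 0.35 for litter 3. Egr1, an immediate early transcription factor gene with the smallest litter p of the list, averaged 16322, 18050, 17826 and 9955 in litters 1, 2, 3 and 4 (limma F-test adjusted p = 0.000455), highest in litter 2 and lowest in litter 4. Col12a1, a collagen gene of perichondrium and tendon, averaged 9250, 6242, 11413 and 7760 (adjusted p = 0.00192), highest in litter 3 and lowest in litter 2. The summed signal of the 17 markers of this list lay between 218846 and 261235 in transgenic samples and between 235874 and 269117 in controls, and averaged 254508, 252431, 264689 and 227360 by litter. Tnc is also a gene of these cells, and the part of these cells in its levels was not tested. No marker of this list was at 0, and the tendon factor gene Scx was the dimmest, with a mean signal of 103.

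Of 10 endothelial markers tested, 0 passed the litter test by limma and 0 had an unadjusted p under 0.05. The summed signal of 12 averaged 2399, 2660, 2625 and 1955 by litter. These sums lay between 1801 and 2865 in transgenic samples and between 2109 and 2912 in controls, and litter 2, the low litter of Erg, had the highest mean. Of 10 skeletal muscle markers, 6 passed, against 9.91% of all genes. By the contrasts 5 were lower in litter 2 (3.0% of all genes) and 5 higher in litter 4 (4.12% of all genes). Mylpf, a fast myosin light chain gene, averaged 7169, 4057, 5188 and 9353 (adjusted p = 0.000158). The muscle sum lay between 30417 and 45981 in transgenic samples and between 31876 and 48281 in controls.

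All 14 genes of the response to tissue dissociation passed the litter test (limma, 100% against 9.91% of all genes), and 13 were higher in litter 2 and 12 lower in litter 4 by the contrasts. In litter 3, 1 was higher and 3 were lower (1.43% of all genes lower), with a list median of -0.05 log2, against 0.62 in litter 2 and -0.58 in litter 4. Hspa1b, a heat shock protein gene, averaged 22728, 29186, 9993 and 15985 in litters 1, 2, 3 and 4 (adjusted p = 5.48e-05), highest in litter 2 and lowest in litter 3. Atf3, a stress-induced transcription factor gene, averaged 4308, 8040, 3605 and 2778 (adjusted p = 5.9e-05), with litter 4 lowest. The summed signal of the 14 genes lay between 118946 and 204926 in transgenic samples and between 115067 and 208196 in controls. The list was thus highest in litter 2, where Cytl1, Prg4, Gdf5, Tnc and Erg were lowest, and near 0 in litter 3, where they were highest, and its part in their values was not tested. For genotype, 0 genes of the muscle and dissociation lists passed by limma with or without litter as a block. An unadjusted p under 0.05 was found for 1 muscle and 1 dissociation gene without the block, against 0.91% of all genes. With the block it was found for 2 of 10 muscle and 3 of 14 dissociation genes, against 3.08% of all genes.

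The samples of a litter also differed in Y-linked genes. Eif2s3y gave 909, 524, 1039 and 766 in transgenic samples of litters 1, 2, 3 and 4, against 799, 809, 102 and 737 in controls. The control of litter 3 was the lowest of its genotype also in Kdm5d, with 141 against 507 to 662 in the other controls, and in Uty, with 165 against 361 to 467. The transgenic sample of litter 2 was the lowest of its genotype in each of these genes. It gave 343 in Kdm5d, against 389 to 646 in the other transgenic samples, and 219 in Uty, against 453 to 590. The control of litter 2 gave 662 in Kdm5d and 420 in Uty. The genotypes of litters 3 and 2, the high and low litters of Cytl1, Prg4, Gdf5, Tnc and Erg, thus differed in these genes. The part of the sexes of the embryos in the genotype differences was not tested.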

How the data were processed

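Total RNA of 8 samples was labelled with biotin and hybridised to Affymetrix arrays, and the deposited intensity signals are 1 value per probe set and array; per the submitters' processing notes they were made with MAS5, of no stated version. The trimmed mean (2% at each end) was 500 on every array, and no further normalization was applied. Probe sets were named from the platform annotation of 2016 (34945 with 1 symbol) and left out if they were among 64 controls.

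An offset of 22.1, the 20th percentile of the table, was added before taking log2, which understates changes of dim genes. Tests covered the 22519 probe sets averaging 110 (the median) or more, and each gene was read from its brightest probe set. Genotypes were compared with limma 3.58.1 in R 4.3.3 (lmFit, eBayes with intensity trend, two-sided, all 8 arrays), adjusted by Benjamini-Hochberg over all tested probe sets at 0.05; litters were compared with the moderated F-test and with contrasts of each litter against the other 3, with a genotype term. The genotype fits and the litter F-test had first been tested on simulated data. Samples with the same number come from the same litter, which pairs them. After subtracting group means, the correlation within pairs was 0.0251, 0.434, 0.376 and 0.379 for litters 1 to 4. The highest correlation of each control with a transgenic sample of another litter was 0.0630, 0.0133, 0.0303 and 0.0042. In litter 1 this was above the value within the pair, so the pairing of litter 1 rests on the labels. With 8 arrays, precision is limited by their number.

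The members and lists were chosen with earlier results of these data known. Named genes were all probe sets of the members, Hoxc8, the 3 genes most correlated with each member, and of each list described the 3 with the smallest litter p and the 1 with the largest genotype difference; where a list is described more briefly, only some of these are given. Alternatives were litter as a block, other offsets, filters and scalings, moderation without trend or robust, array weights, and leaving out single arrays or litters. Lists of osteoblast, erythroid, macrophage and neutrophil, cell cycle and sex-linked genes are given in the closing section.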

Additional observations from a re-analysis of the deposited data

Results flagged for a closer look

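A search for single samples far from the other 3 of their genotype (Dixon's ratio of gap to range) took in 90 sets of 4 values, covering the 9 probe sets of the 6 genes, Hoxc8, the genes most like them and the summed marker lists. Such a sample was found in 2 sets, where chance gives about 4.5. The Y-linked genes described above were not searched singly. The dimmer Erg probe set was 34.7 in the control sample of litter 2, with the next control at 7.94, all under the signal filter. The dimmer Ucma probe set was 21462 in the control sample of litter 3, with the next control at 23732, and the transgenic sample of that litter, 22019, was also the lowest of its genotype.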

How the results depend on the processing

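Under all 22 alternatives 0 probe sets passed between genotypes, and of the recomputed values of the 8 member probe sets 149 kept their sign and 25 changed it. The fit with litter as a block (replicate block) left the differences as they were, for example -0.36 for Cytl1, and changed no call. Leaving out whole litters kept the negative sign of Cytl1 (-0.46 to -0.26), Prg4 (-0.36 to -0.20), Gdf5 (-0.20 to -0.05) and the brighter Tnc probe set (-0.25 to -0.08). Leaving out single arrays, which leaves a litter with 1 genotype, gave ranges that crossed 0: Cytl1 -0.81 to 0.16, Prg4 -0.64 to 0.0575, Gdf5 -0.57 to 0.22, Tnc -0.38 to 0.0839 and -0.16 to 0.0699, Erg -0.21 to 0.14, and Ucma -0.0384 to 0.0691 and -0.0506 to 0.0132 (log2). Cytl1 and Prg4 were positive only without transgenic replicate 2, of litter 2. Of the other settings, array weights gave 0.0040 for Tnc and 0.12 for Erg, and median centring 0.0133 for the dimmer Ucma probe set; the cause was not tested. Probe sets passing the litter test numbered 2027, against 995 without a filter and 0 without the intensity trend, where 4916 had an unadjusted p under 0.05; the other 6 settings gave 1900 to 2486. The median litter range over the 6 genes was 1.53 and lay between 0.89 and 1.60 when arrays or litters were left out, the lowest values being 0.89 without replicate 2 and 0.97 without replicate 3. The Tnc range was 0.82 as the mean of its 2 probe sets.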

Other observations

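The 6 osteoblast markers tested had litter medians of -0.04 log2 in litter 2 and 0.37 in litter 3, and 1 passed the litter test, Col1a1, with 22063, 19550, 24965 and 15984 in litters 1, 2, 3 and 4 (limma F-test adjusted p = 0.0201), its 1 other probe set having the opposite sign in litter 3. Of 8 macrophage and neutrophil markers 3 passed the litter test, against 9.91% of all genes. For genotype 0 passed by limma, and 2 had an unadjusted p under 0.05 with litter as a block, against 3.08% of all genes. The neutrophil granule genes S100a9 and S100a8 averaged 1685, 733, 939 and 2114 (adjusted p = 0.000443) and 1417, 688, 1286 and 1914 (adjusted p = 0.00489), lowest in litter 2, and C1qb, a complement gene of macrophages, averaged 239, 153, 268 and 88.5 (adjusted p = 0.039). Alas2, the heme synthesis gene of red cells, averaged 3991, 3557, 2296 and 3974 (adjusted p = 0.00557), lowest in litter 3, and 1 of 2 erythroid markers tested passed. Of 8 genes of G2 and M phase 0 passed by limma and 1 had an unadjusted p under 0.05, with Top2a at an adjusted p of 0.0664. Of 4 sex-linked genes 0 passed the litter test by limma and 0 had an unadjusted p under 0.05. That test of litter means does not see the differences between the 2 samples of litter 2 or of litter 3.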
